A study of Mus musculus with 8 samples.

Results

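The ionotropic and metabotropic receptors for glutamate and GABA (gamma-aminobutyric acid) were followed in cultured mouse neural stem and progenitor cells with and without Kat7, a gene encoding a histone acetyltransferase. The genes were chosen by symbol alone: all protein-coding members of the Gria, Grik, Grid, Grin and Grm families for glutamate and of the Gabra to Gabrr and Gabbr families for GABA. The rule gave 47 genes, all 47 of them present among the 27179 genes of the deposited count table. Reads were found for 44 of the 47, and 20 had a mean of at least 1 CPM (read counts scaled to a common library size) in at least 1 genotype. A filter on low counts left 19 subunit genes for testing, and 28 were not tested.

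Glutamate is the main excitatory and GABA the main inhibitory transmitter of the mature brain. AMPA, kainate and NMDA receptors are cation channels built from 4 subunits, GABA-A receptors are chloride channels built from 5, and the mGluR and GABA-B receptors signal through G proteins. Neural precursors and radial glia also carry some of these receptors before synapses form, and in immature cells GABA often depolarizes.

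RNA came from proliferating neurospheres, floating clusters of dividing neural precursors, kept in medium for stem cell proliferation. The cultures were derived from C57BL/6 fetuses at embryonic day 14.5. The 4 deleted cultures had the genotype Kat7lox/loxNesCreT/+ and the 4 intact ones Kat7+/+NesCreT/+, so that both genotypes carried the NesCre transgene, a Cre recombinase driven from Nestin regulatory sequence in neural precursors. Of the 6 litters, 3 gave intact and 3 gave deleted fetuses and 0 gave both, which means that litter effects cannot be told apart from genotype. The intact pair 1 and 2 shared a litter, as did the deleted pair 3 and 4. P-values measure the spread between single fetuses' cultures.

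Kat7 itself stood at 85.8, 77.1, 81.0 and 92.1 CPM in intact replicates 1 to 4 and at 26.4, 0.367, 13.9 and 0.0870 CPM in deleted cultures 1 to 4. Every deleted library was below every intact one (two-sided exact permutation test of 70 arrangements, p = 0.0286, the smallest it can give). The deleted libraries were far apart, with 416, 4, 253 and 1 Kat7 reads, and edgeR's quasi-likelihood test gave a log2 fold change of -3.02 ± 1.10 (SE) with a Benjamini-Hochberg adjusted p of 0.128. Which exons the deletion removes is not named in the sources used here, and reads from exons left in place would still count as Kat7. Deleted replicates 1 and 3 kept 31.4% and 16.5% of the intact mean of Kat7. Library totals ran from 10687817 to 22444359 counts, and mitochondrial transcripts took 18.95% to 23.48% of counts in intact cultures. Their shares in the deleted cultures 1 to 4 were 29.93%, 18.95%, 17.11% and 34.38%.

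In intact cultures a few subunits carried most of the transcripts. Per kilobase of transcript, Grm5, encoding the G protein-coupled receptor mGluR5, ranked first at 48.4 ± 5.65 CPM per kb (mean ± SD, n = 4). Gria2, the AMPA subunit that makes channels impermeable to calcium once its RNA is edited, came next at 30.1 ± 10.2 CPM per kb. Gria3 followed at 17.4 ± 0.82 and Gria4 at 15.4 ± 4.06 CPM per kb. Further down came, among others, Gabrg1 (10.4 ± 1.22 CPM per kb), Grin3a (7.73 ± 3.39), Gabbr1 (5.68 ± 0.73), Grm3 (4.96 ± 2.45), Grik5 (3.52 ± 0.49) and Grid1 (3.17 ± 0.44). Between neighbours in this order the ranges over the 4 intact libraries were apart at Gria2 to Gria3, at Grid1 to Grik2 and at Gabbr2 to Grin1. All other neighbours among the first 22 overlapped. Of the subunits found at mature synapses, Gria1 and the obligatory NMDA subunit Grin1 were low in intact cultures. Gria1 stood at 0.170 ± 0.071 CPM per kb (9 to 33 reads) and Grin1 at 0.329 ± 0.112 CPM per kb (16 to 48 reads).

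The DNA before the start of 6 subunit genes is shown, chosen after their values were seen, because these genes took different courses over the 4 deleted libraries or hold letters of a known silencer element. Sequences are the 250 bases upstream of the RefSeq gene start (GRCm38.p6), read 5′ to 3′ on the gene's strand. For Gria2 and Grik5 the start used in the RefSeq promoter table lies inside the annotated gene span, where longer transcripts begin further upstream, and the Grik5 window overlaps an exon of Zfp574 on the other strand in GENCODE. The lines for Gria4, the gene furthest apart among the deleted cultures, and Grm3, with the largest fitted difference between genotypes, have every CG dinucleotide in capitals, and so do those for Grik5 and Gabbr1, which differed less. In deleted replicate 2 those last genes stood at 98.6% and 40.4% of their intact means, where Gria4 had 7 reads and Grm3 none.
Gria4 (chr9:4796235-4796484, minus strand): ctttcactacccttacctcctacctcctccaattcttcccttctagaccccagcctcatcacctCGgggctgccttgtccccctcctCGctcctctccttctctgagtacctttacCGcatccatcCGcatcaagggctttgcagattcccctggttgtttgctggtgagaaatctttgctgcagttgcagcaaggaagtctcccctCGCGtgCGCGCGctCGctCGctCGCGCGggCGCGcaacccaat
Grm3 (chr5:9725353-9725602, minus strand): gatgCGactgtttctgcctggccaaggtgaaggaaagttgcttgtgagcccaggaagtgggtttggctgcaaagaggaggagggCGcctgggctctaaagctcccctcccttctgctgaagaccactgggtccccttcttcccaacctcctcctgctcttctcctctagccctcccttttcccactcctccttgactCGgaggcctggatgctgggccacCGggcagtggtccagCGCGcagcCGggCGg
Grik5 (chr7:25072370-25072619, minus strand): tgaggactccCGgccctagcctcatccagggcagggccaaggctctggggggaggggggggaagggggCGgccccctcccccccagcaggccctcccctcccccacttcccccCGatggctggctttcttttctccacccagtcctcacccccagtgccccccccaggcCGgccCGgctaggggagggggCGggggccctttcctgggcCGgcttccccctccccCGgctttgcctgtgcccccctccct
Gabbr1 (chr17:37045716-37045965, plus strand): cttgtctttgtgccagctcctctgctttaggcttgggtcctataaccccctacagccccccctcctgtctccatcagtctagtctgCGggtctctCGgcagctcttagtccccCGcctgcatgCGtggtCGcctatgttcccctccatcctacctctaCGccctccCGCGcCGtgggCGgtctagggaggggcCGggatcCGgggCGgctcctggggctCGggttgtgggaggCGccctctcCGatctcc

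Upstream windows were found for 32 of the 47 subunit genes, 12 of them tested. The 12 tested windows held a median of 17 CG dinucleotides, beside 6 over all 32851 windows of that length in the RefSeq table. The 6 of these 12 genes that were under 25% of the intact mean in both deleted replicates 2 and 4 held 8 to 37 CG (Grm3, Gria4, Gabra2, Gria2, Grik2 and Gabbr2). The other 6 held 1 to 42 (Gabrg1, Grik5, Gabra4, Gabbr1, Grin1 and Grik3), and the ranges overlapped. Neuronal genes are classically silenced outside neurons through RE1, the element bound by the repressor REST. Its left part was searched as TTCAGCACC and its right part as GGACAGC, on both strands. The left part was in 0.301% of all windows and the right part in 5.28%. Both parts were in 5 windows, 0.0152% of all. The capitals below mark these parts.
Gria2 (chr3:80802836-80803085, minus strand): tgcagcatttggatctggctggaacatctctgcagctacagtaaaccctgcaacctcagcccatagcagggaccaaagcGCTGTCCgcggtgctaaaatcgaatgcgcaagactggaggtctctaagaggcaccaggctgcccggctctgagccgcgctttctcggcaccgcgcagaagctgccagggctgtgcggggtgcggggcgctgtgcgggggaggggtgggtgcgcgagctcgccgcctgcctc
Grm2 (chr9:106656110-106656359, minus strand): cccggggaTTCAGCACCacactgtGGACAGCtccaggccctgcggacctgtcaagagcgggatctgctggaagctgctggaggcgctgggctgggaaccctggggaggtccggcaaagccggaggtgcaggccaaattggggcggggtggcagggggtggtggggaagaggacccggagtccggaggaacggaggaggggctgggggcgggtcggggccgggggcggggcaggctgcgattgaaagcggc

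The Grm2 window held both parts, 7 bases apart, and Grm2 had 1 read in all 8 libraries. The Gria2 window held the right part on the other strand, GCTGTCC. Its first base lay 171 bases before the start used for this window, which is inside the annotated gene span. Just past it, the printed letters differ by 1 base from the left part as read on the other strand. The search was for exact letters and did not count this near match. How many of all windows hold such a near match was not counted. A match to these letters is a description of the sequence and not a measured site.

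No tested subunit gene passed the test between genotypes. By edgeR's quasi-likelihood test, 0 of 19 had a Benjamini-Hochberg adjusted p under 0.05, where 7.90% of the 13498 genes tested did (5.10% higher and 2.80% lower in deleted cultures). Adjusted p-values of the 19 ran from 0.0704 to 0.986. Unadjusted p was under 0.05 for Grm3 (0.0078) and Gabra4 (0.0359) alone, 2 of 19, beside 26.2% of all genes. DESeq2 called 0 of the 19 (16.3% of all genes), with no adjusted p for 4 of them, and limma-voom called Grik3 and Grm3 lower (7.99% of all genes in either direction). With deleted replicate 1 left out, 4 were called lower, Gria2, Grm3, Grm5 and Gabbr2 (12.6% of all genes in either direction), and with deleted replicate 2 left out, Gria3 and Grik3 (15.8%). Fitted log2 fold changes were above 0 for 9 subunits and below 0 for 10, with a median of -0.49 beside 0.05 for all genes tested. Without deleted replicate 1 that median was -1.37, and without deleted replicate 2 it was -0.19. Every deleted library was below every intact one for 2 subunits, Gria3 and Grm3 (9.21% of all genes), and above for 0 (10.7%). In RNA of whole cultures, fewer cells of a type and less RNA per cell cannot be told apart.

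**Figure D1:**
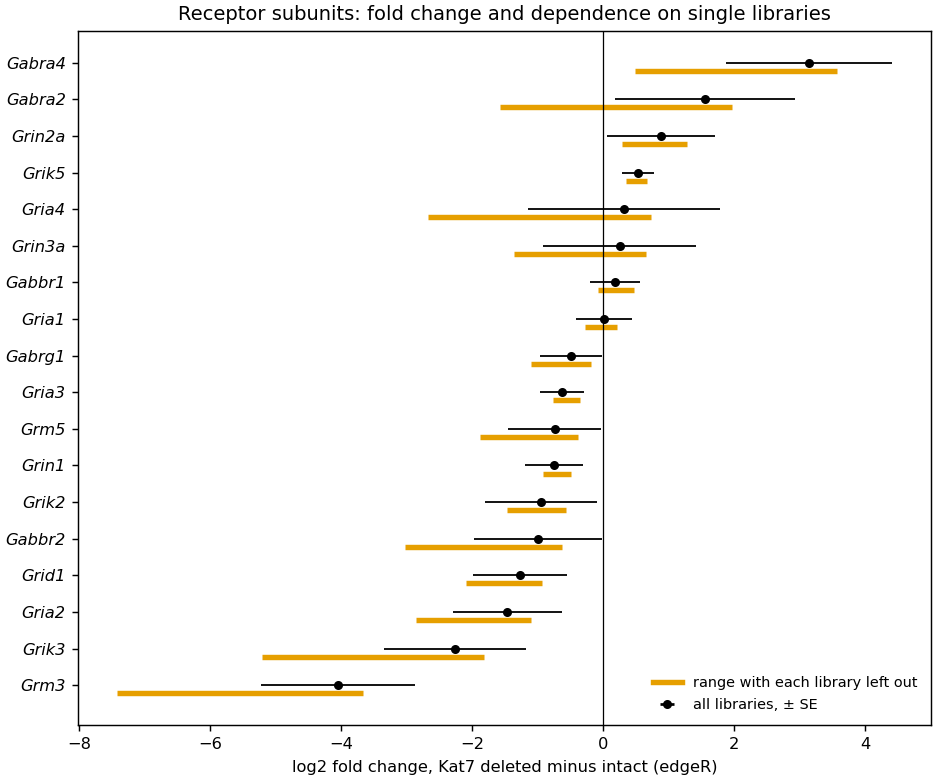
Points show the fitted log2 fold change (deleted minus intact, edgeR) of tested subunit genes with ± SE as a black line, and orange bars show the range when each library is left out in turn. The values run from -4.05 for Grm3 to 3.14 for Gabra4, and the orange bars of Gria4 and Gabra2 reach to the other side of 0.

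The deleted cultures differed widely among themselves. The summed level of all 47 subunits was 999, 911, 1073 and 1226 CPM in intact replicates 1 to 4. In deleted replicates 1 to 4 it was 1857, 150, 583 and 295 CPM, which is 176%, 14.3%, 55.4% and 28.1% of the intact mean. Replicate 1 was thus above, and the other 3 deleted cultures below, all intact ones. The SD of log2 CPM over the 4 libraries had a median of 0.41 for the 19 subunits in intact and 1.89 in deleted cultures, beside 0.17 and 0.38 for all genes. It was over 1 in the deleted group for 14 of 19 (73.7%), beside 12.6% of all genes. The median subunit stood at 145% of its intact mean in deleted replicate 1, at 16.7% in replicate 2, at 75.0% in replicate 3 and at 10.3% in replicate 4. The median of all genes lay between 99.8% and 102% in each, which the scaling of library sizes largely sets.

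**Figure D2:**
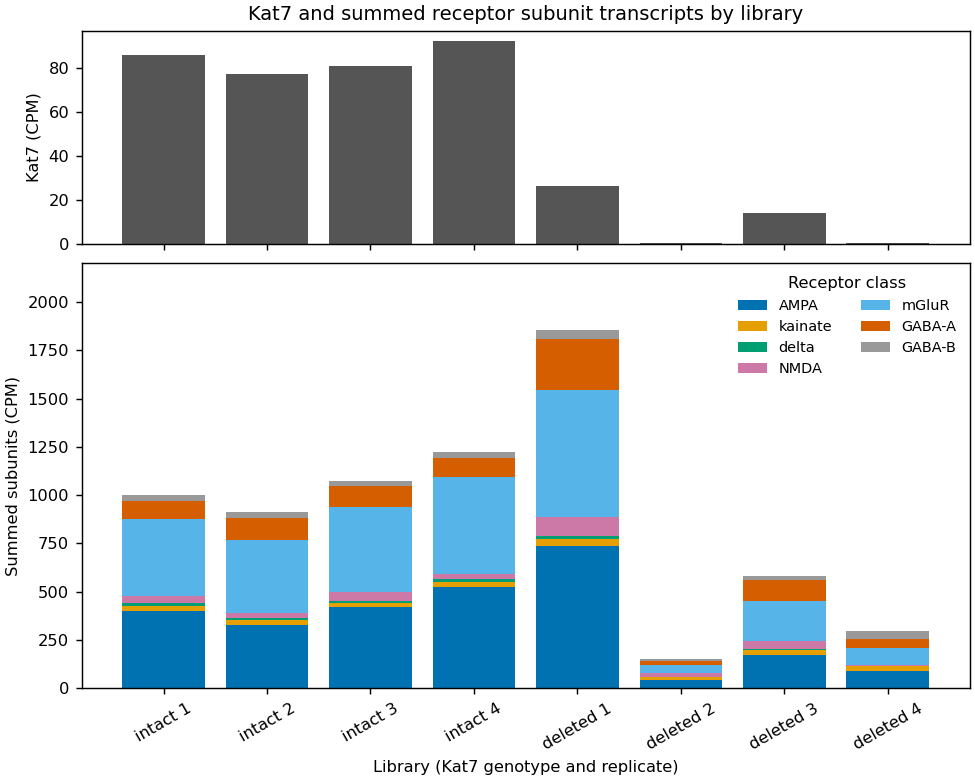
The upper bars show Kat7 in CPM in each of the 8 libraries, and the lower stacked bars show the summed CPM of the subunit genes of each receptor class. The lower bars stand between 911 and 1226 CPM in the intact cultures and at 1857, 150, 583 and 295 CPM in the deleted ones, with AMPA and mGluR genes as the widest bands in the intact bars.

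Deleted replicate 1 was the highest of the 8 libraries for 10 of 19 subunits (23.0% of all genes), and the lowest was deleted replicate 2 or 4 for 15 of 19 (78.9%, beside 37.9%). In both replicates 2 and 4, 10 of 19 subunits (52.6%) were under 25% of the intact mean, beside 3.39% of all genes. Among them were Gria2, Gria4, Grik2, Grid1, Grin3a, Grm3, Grm5, Gabra2 and Gabbr2, which come from all 7 receptor classes. These 2 libraries also had the fewest Kat7 reads (4 and 1) and the lowest totals (10687817 and 13115339 counts). The mitochondrial share was lowest in deleted replicate 3 and highest in replicate 4, which are littermates. The part of depth, of Kat7 reads and of the mitochondrial share in these levels was not tested.

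**Figure D3:**
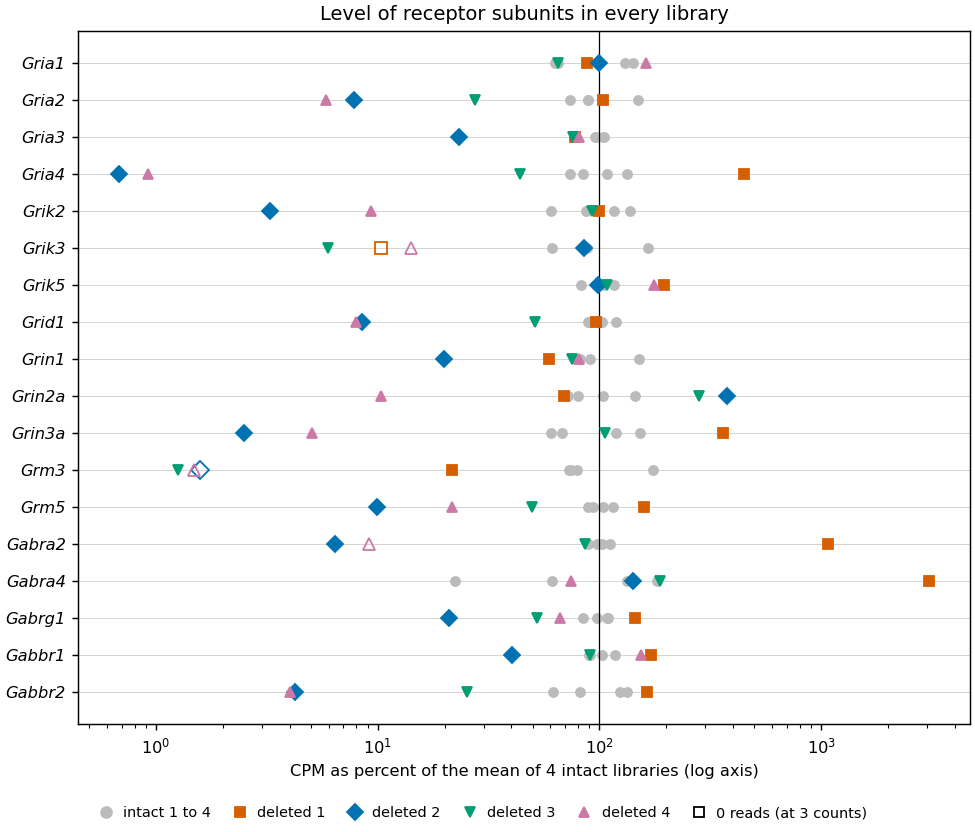
Each row is a tested subunit gene and each symbol a library, placed at its CPM as a percent of the mean of the 4 intact libraries on a log axis, with open symbols for libraries at 0 reads drawn at 3 counts. Grey circles are the intact libraries, whose spread is widest for Gabra4, and for many genes deleted replicate 1 (squares) lies to the right and replicates 2 (diamonds) and 4 (triangles pointing up) far to the left.

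Summed marker levels of cell types differed between the deleted libraries too. Of 12 astrocyte markers, all 12 were tested and 5 were called higher. Their sum was 775 to 1210 CPM in intact cultures and 6499, 714, 2481 and 2082 CPM in deleted replicates 1 to 4. Sparcl1, Aldoc and Acsbg1 made up most of these sums, and not every marker took their course. Aldh1l1 was at 31.6, 93.5, 25.4 and 139 CPM in deleted replicates 1 to 4. Of the 12, 5 were above all intact libraries in every deleted one, replicate 2 included, beside 10.7% of all genes tested. Aqp4, Fgfr3 and Aldoc were among these 5, with Aldoc at 72.1 CPM in deleted replicate 2 and at most 62.1 CPM in intact cultures. Mesenchymal and mural cell markers (4 of 10 tested, 2 called higher) summed to 45.1 to 93.5 CPM in intact and to 68.0, 802, 86.3 and 280 CPM in deleted replicates, highest in replicates 2 and 4. Cspg4, also an oligodendrocyte lineage marker, made up 41.0 to 90.1 CPM of the intact sums. Acta2 and Thbs2 were high in both replicates, but Col3a1 (334 CPM) and Dcn (84.1 CPM) in replicate 2 alone. Tagln, Col1a1, Col1a2, Pdgfrb and Lum stood at no more than 2.61 CPM in any library. Oligodendrocyte lineage markers (8 of 12 tested, 2 called lower) summed to 1431 to 1792 CPM in intact and to 1764, 482, 1692 and 1030 CPM in deleted replicates, lowest in replicates 2 and 4. Olig1 and Olig2 made up most of these sums, with Olig1 at 732 to 1012 CPM in intact cultures. Pdgfra and Sox10 went the other way in deleted replicate 2. Pdgfra stood at 59.6 CPM there and at most 13.3 CPM in any other library. Neuron markers (12 of 16 tested, 3 called lower) summed to 952 to 1288 CPM in the deleted and 1163 to 1223 CPM in the intact libraries, but Map2 alone made up 778 to 1106 CPM of these sums. The 3 called lower were Elavl3, Elavl4 and Neurod1, and Dcx stood at 101 CPM in deleted replicate 2 and at most 1.26 CPM in any other library. Neural stem cell markers, 10 of 10 tested and 0 called, summed to 3656 to 5775 CPM in deleted and 5067 to 6161 CPM in intact cultures. Microglia, endothelial and erythroid markers summed to at most 3.53, 15.7 and 1.22 CPM in any library, with C1qa, Hba-a1 and Hbb-bs at 0 throughout. The part of these cell types in the receptor levels was not tested.

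The AMPA and mGluR classes had the largest sums in intact cultures. Per kb the AMPA sum was 61.3, 50.2, 64.1 and 76.4 CPM per kb in intact replicates 1 to 4, above the mGluR sum of 48.9, 46.7, 54.2 and 64.4 CPM per kb in each. The AMPA genes together stood at 419 ± 80.8 CPM (mean ± SD, n = 4) in intact cultures and at 739, 40.9, 175 and 89.5 CPM in deleted cultures 1 to 4. Gria2 (chr3:80681450-80804227) was at 206, 171, 207 and 348 CPM in intact replicates 1 to 4 and at 242, 18.3, 64.2 and 13.6 CPM in the deleted ones. Deleted replicate 1 lay within the intact range and the other 3 below it. The log2 fold change was -1.46 ± 0.83 (edgeR's quasi-likelihood test, adjusted p = 0.299). Without deleted replicate 1 it was -2.85 with an adjusted p of 0.0234.

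Gria4 (chr9:4417893-4796234), a subunit of early and fast AMPA channels, had the largest spread over the deleted libraries of all 19 subunits tested (SD of log2 CPM 4.41). It stood at 102, 69.9, 126 and 79.8 CPM in intact cultures and at 426, 0.643, 41.4 and 0.870 CPM in deleted cultures 1 to 4, which rested on 6716, 7, 754 and 10 reads. Deleted replicate 1 was above all intact libraries and the other 3 below all of them. The group means were 94.5 ± 25 and 117 ± 207 CPM, with a log2 fold change of 0.31 ± 1.46 (edgeR's quasi-likelihood test, adjusted p = 0.914). That value was -2.68 without deleted replicate 1.

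Gria3 (chrX:41400819-41678601), another AMPA subunit, took a different course. It read 93.6, 86.8, 86.6 and 94.5 CPM in intact cultures and 70.1, 20.9, 68.3 and 73.4 CPM in the deleted ones. All 4 deleted libraries were below the lowest intact one, 3 of them by a modest margin and replicate 2 far below. The log2 fold change was -0.63 ± 0.34 (adjusted p = 0.267, edgeR's quasi-likelihood test). Without deleted replicate 2 it was -0.36 (adjusted p = 0.0416). Gria1, the main AMPA subunit of adult forebrain, ran from 0.641 to 1.44 CPM in intact and from 0.659 to 1.65 CPM in deleted libraries (log2 fold change 0.02 ± 0.43).

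The makeup of the AMPA transcripts per kilobase differed between libraries too. Gria2 made up 43.3%, 43.9%, 41.7% and 58.9% of the AMPA sum per kb in intact cultures and 27.4%, 35.4%, 29.3% and 10.7% in deleted replicates 1 to 4, lower in every deleted library. Gria4 made up 60.7% in deleted replicate 1 but 1.6% and 0.9% in replicates 2 and 4. Gria3 held 60.5% and 86.7% in those 2 replicates, beside 23.8% to 33.3% in the intact cultures. These shares are a description of 4 transcripts and not of assembled channels.

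Among kainate receptor genes, Grik5, which encodes a high-affinity subunit that needs a partner to form channels, was the most abundant per kb. It was at 15.7, 11.2, 13.1 and 14.1 CPM in intact and at 26.4, 13.3, 14.6 and 23.7 CPM in deleted cultures 1 to 4. Deleted replicates 1 and 4 were above the intact range and the other 2 within it (log2 fold change 0.53 ± 0.24, adjusted p = 0.206 by edgeR's quasi-likelihood test). Grik2, a subunit that forms channels itself, stood at 7.27, 11.5, 5.09 and 9.73 CPM in intact and at 8.37, 0.275, 7.74 and 0.783 CPM in deleted cultures. It was within the intact range in replicates 1 and 3 and far below it in replicates 2 and 4 (log2 fold change -0.95 ± 0.85).

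Grik3, another subunit that forms channels itself, kept reads in a different deleted library. It was at 1.57, 1.61, 1.12 and 3.05 CPM in intact cultures and at 0, 1.56, 0.110 and 0 CPM in deleted cultures 1 to 4. Deleted replicate 2 lay within the intact range and the other 3 had next to no reads. The value was -2.26 ± 1.08 on the log2 scale (adjusted p = 0.224, edgeR's quasi-likelihood test), and -5.20 with an adjusted p of 0.0104 without deleted replicate 2. Grik4, not tested, stood at 0.570, 0.478, 1.57 and 1.57 CPM in intact and at 1.39, 0.367, 0.165 and 0.174 CPM in deleted cultures.

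Grid1, a delta receptor that joins synapses through secreted adaptors, was at 11.2, 9.63, 9.78 and 12.9 CPM in intact and at 10.5, 0.918, 5.55 and 0.870 CPM in deleted cultures 1 to 4. Replicate 1 lay within the intact range and the other 3 below it (log2 fold change -1.27 ± 0.71, adjusted p = 0.293 by edgeR's quasi-likelihood test).

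NMDA receptors need Grin1, and Grin1 was scarce in both genotypes. It was at 1.14, 1.26, 1.08 and 2.09 CPM in intact and at 0.824, 0.275, 1.04 and 1.13 CPM in deleted cultures 1 to 4. The ranges overlapped (log2 fold change -0.75 ± 0.44, adjusted p = 0.313 by edgeR's quasi-likelihood test). An antisense gene, Grin1os, covers 13.5% of the exonic bases of Grin1, and without a stated strand setting its reads cannot be told apart from those of Grin1.

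Grin3a, a subunit that lowers calcium flow through NMDA channels, held most of the class sum per kb in the intact cultures (69.6% to 90.1%) and in deleted replicates 1 and 3 (95.2% and 69.2%), but 4.0% and 33.6% in replicates 2 and 4. It stood at 30.7, 17.5, 39.6 and 15.7 CPM in intact cultures and at 93.5, 0.643, 27.3 and 1.30 CPM in deleted cultures 1 to 4. Replicate 1 was above and replicates 2 and 4 far below the intact range (log2 fold change 0.25 ± 1.17, adjusted p = 0.913, edgeR's quasi-likelihood test). Grin2a, the subunit that prevails in adult brain, was at 4.06, 7.30, 3.67 and 5.23 CPM in intact and at 3.49, 19.1, 14.3 and 0.522 CPM in deleted cultures. Here replicates 2 and 3 were above, and replicates 1 and 4 below, all intact libraries (log2 fold change 0.88 ± 0.82). In deleted replicate 2 Grin2a made up 89.0% of the NMDA sum per kb, and in intact cultures between 6.2% and 21.7%.

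**Figure D4:**
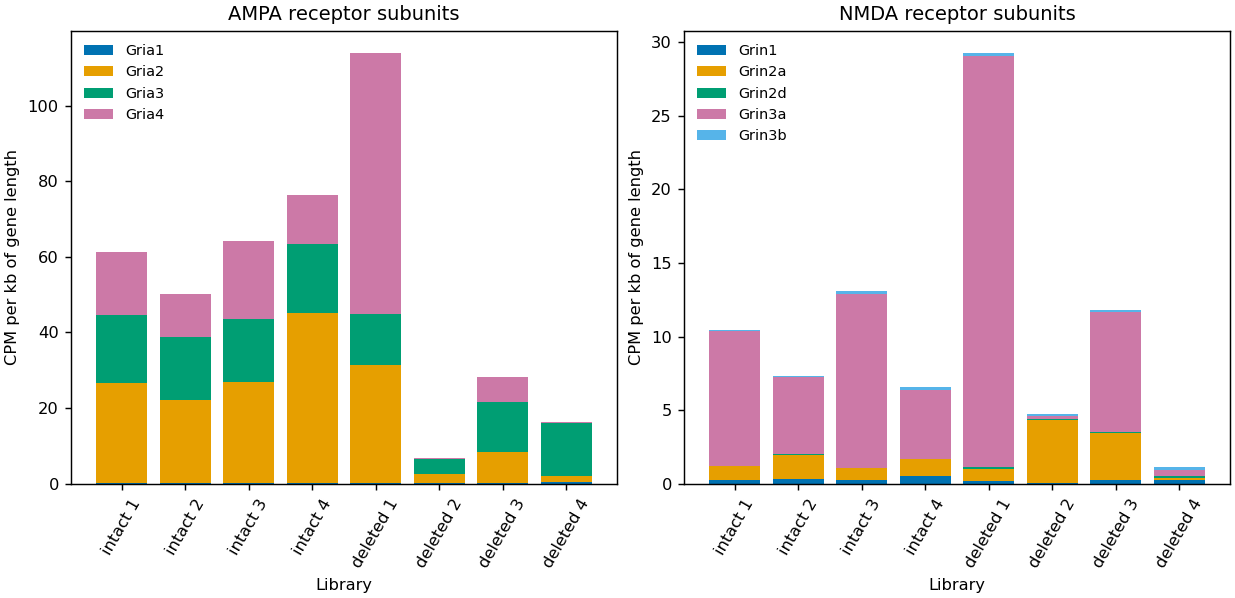
Stacked bars show CPM per kb of gene length for the AMPA subunits (left) and the NMDA subunits (right) with a mean over 0.05 CPM per kb in a genotype, in each of the 8 libraries. Gria4 fills most of the AMPA bar of deleted replicate 1 (60.7%) and Gria3 most of that of deleted replicate 4 (86.7%), and Grin2a fills most of the NMDA bar of deleted replicate 2 (89.0%).

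Metabotropic glutamate receptors were represented almost entirely by Grm5 (chr7:87583981-88135063), which couples to calcium release. It was at 385, 366, 427 and 474 CPM in intact and at 652, 40.9, 205 and 89.0 CPM in deleted cultures 1 to 4. Deleted replicate 1 was above and the other 3 below all intact libraries. The group means were 413 ± 48.2 and 247 ± 279 CPM, and the log2 fold change was -0.74 ± 0.72 (adjusted p = 0.545, edgeR's quasi-likelihood test). Without deleted replicate 1 it was -1.89 with an adjusted p of 0.0458. In 7 of the 8 libraries Grm5 was the most abundant subunit per kb, and in deleted replicate 4 that place went to Gria3.

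Grm3 (chr5:9485236-9725352), a receptor that lowers cyclic AMP and is common on glia, had the smallest p of the 19. It was at 12.8, 13.0, 13.9 and 30.5 CPM in intact and at 3.80, 0, 0.220 and 0 CPM in deleted cultures 1 to 4, from 60, 0, 4 and 0 reads. A library at 0 allows up to 3 counts, which is 0.275 CPM in deleted replicate 2 and 0.261 CPM in replicate 4. All deleted libraries were below all intact ones, replicate 1 included. The log2 fold change was -4.05 ± 1.17 (adjusted p = 0.0704, edgeR's quasi-likelihood test), which misses the threshold of 0.05. It passed without deleted replicate 1 (-7.42, adjusted p = 0.0033) and with limma-voom (-6.32, adjusted p = 0.0181), and the fitted size rests on libraries with next to no reads.

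GABA-A receptor genes summed to 103 ± 9.42 CPM in intact cultures and to 261, 19.7, 106 and 45.7 CPM in deleted replicates 1 to 4. Of the 19 genes of this class, 4 were tested. Gabrg1, a gamma subunit found in glia and immature cells, was at 41.8, 48.3, 54.4 and 53.7 CPM in intact and at 71.9, 10.4, 25.9 and 33.0 CPM in deleted cultures. Replicate 1 was above and the other 3 below all intact libraries (log2 fold change -0.49 ± 0.47, adjusted p = 0.548 by edgeR's quasi-likelihood test).

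The alpha subunits, which help to form the GABA site, were scarce in intact cultures and stood out in 1 deleted culture. Gabra2 was at 2.78, 2.93, 2.54 and 3.18 CPM in intact and at 30.8, 0.184, 2.47 and 0 CPM in deleted cultures 1 to 4. Only deleted replicate 1 was above the intact range (log2 fold change 1.56 ± 1.38, adjusted p = 0.509, edgeR's quasi-likelihood test). Gabra4 was at 1.07, 0.359, 0.783 and 0.131 CPM in intact and at 17.9, 0.826, 1.10 and 0.435 CPM in deleted cultures. Deleted replicates 1 and 3 were above the intact range, the latter barely (log2 fold change 3.14 ± 1.26, adjusted p = 0.160 by edgeR's quasi-likelihood test). Without deleted replicate 1 the fitted direction of Gabra2 turned, to -1.57.

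Gabra2 and Gabra4 lie in 1 cluster on chromosome 5 with Gabrg1 and Gabrb1, in the order Gabrg1 (chr5:70751047-70842617), Gabra2 (chr5:70958392-71095849), Gabra4 (chr5:71569734-71658308) and Gabrb1 (chr5:71657921-72149572). All 4 had their highest value of the 8 libraries in deleted replicate 1, Gabrb1 with 13 reads there and at most 2 elsewhere. This was not particular to the cluster, as that library was the highest for 10 of the 19 tested subunits and for 23.0% of all genes. Gria4, Grin3a, Grm5 and Gabbr1, on other chromosomes, were among these subunits. Gabra4 and Gabrb1 overlap by 46 exonic bases on opposite strands, so few of their reads could be shared.

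GABA-B receptors need both Gabbr1 and Gabbr2, the former binding GABA and the latter carrying the complex to the surface. Gabbr1 was at 26.1, 22.8, 23.1 and 29.8 CPM in intact and at 43.4, 10.3, 23.1 and 39.2 CPM in deleted cultures 1 to 4. Replicates 1 and 4 were above the intact range and replicate 2 below it (log2 fold change 0.19 ± 0.38, adjusted p = 0.792 by edgeR's quasi-likelihood test). Gabbr2 was at 3.56, 5.38, 2.69 and 5.76 CPM in intact and at 7.10, 0.184, 1.10 and 0.174 CPM in deleted cultures. Replicate 1 was above and the other 3 below all intact libraries (log2 fold change -0.995 ± 0.98, adjusted p = 0.553). In deleted replicate 4 Gabbr1 was thus above, and Gabbr2 below, every intact library. Gabbr1 made up 79.1% to 88.5% of the pair's sum per kb in intact cultures and 84.5%, 98.0%, 94.9% and 99.5% in deleted replicates 1 to 4.

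By class, the ratio of deleted to intact means was -0.68 on the log2 scale for AMPA, -0.01 for kainate, -1.16 for delta, 0.33 for NMDA, -0.79 for mGluR, 0.07 for GABA-A and 0.06 for GABA-B genes. The genotypes overlapped in all 7 classes. With scaling by total counts alone the GABA-A and GABA-B ratios turned to -0.13 each, and single deleted libraries moved most ratios. In the same order of classes, they were -2.04, -0.25, -2.11, -0.54, -1.94, -0.85 and -0.27 without deleted replicate 1. Without deleted replicate 2 they were -0.33, 0.16, -0.81, 0.55, -0.44, 0.42 and 0.35, and without deleted replicate 4 they were -0.40, -0.0048, -0.81, 0.71, -0.51, 0.32 and -0.071.

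The 28 subunit genes that were not tested had at most 36 reads in any library, the highest being Grik4. Of these, 3 had 0 reads throughout, Gabrq among them. In 4 of the 25 with reads the genotypes did not overlap, beside 4.27% of all 8697 genes that had reads and were not tested. Grin2b had 3, 7, 4 and 8 reads in intact and 3, 0, 3 and 1 in deleted replicates 1 to 4. Grin2c had 2, 3, 3 and 10 reads in intact and 1, 1, 0 and 1 in deleted cultures, and Gabrg3 had 1, 1, 5 and 1 against 0 in every deleted one. Grm4 was higher, with 3, 2, 3 and 6 reads in intact and 8, 4, 6 and 20 in deleted cultures. Most of these counts lie within a few reads of 0, and none is above 20. Grin2b was apart by scaling alone, at 0.196 CPM in intact replicate 3 and 0.190 CPM in deleted replicate 1. So was Grm4, whose reads overlapped, at 0.262 CPM in intact replicate 4 and 0.329 CPM in deleted replicate 3. The fit without a filter on low counts (3.75% of genes called) called none of these 4 genes. Its adjusted p-values were 0.241 for Grin2c and 0.155 for Grm4 (edgeR's quasi-likelihood test).

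Proteins that accompany these receptors were read from 7 lists chosen by function, and 6 of their 52 tested genes passed the test, 2 higher (3.85%) and 4 lower (7.69%). This is 11.5%, beside 7.90% of all genes (5.10% higher and 2.80% lower). Among 11 AMPA receptor auxiliary proteins, 7 were tested, 1 was called higher and 1 lower, with a median log2 fold change of 0.09. Cacng8, a TARP protein that brings AMPA receptors to the membrane, rose from 9.46 ± 1.57 CPM in intact to 18.2 ± 3.73 CPM in deleted cultures (log2 fold change 0.94 ± 0.19, adjusted p = 0.0257 by edgeR's quasi-likelihood test). It was at 9.69, 8.19, 11.6 and 8.37 CPM in intact and at 16.4, 16.0, 16.6 and 23.7 CPM in deleted cultures 1 to 4, with every deleted library above every intact one. Cnih3, a cornichon protein that slows AMPA channel closing, fell from 1.35, 1.55, 0.831 and 3.05 CPM to 0.380, 0, 0.110 and 0.0870 CPM (log2 fold change -3.40 ± 0.73, adjusted p = 0.0296, edgeR's quasi-likelihood test). Both calls were lost without any 1 intact library and, for Cnih3, without deleted replicate 3 or 4, with adjusted p-values of 0.0501 to 0.0988 for Cacng8. Summing littermates ended both (adjusted p = 0.101 and 0.120), a replicate block did too (0.0767 and 0.0710), and a litter block in limma-voom ended that of Cacng8 (0.0661), as did scaling by total counts (0.0512).

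Of the 2 kainate receptor auxiliary proteins, 0 were called. Neto2 stood at 420 ± 43.3 CPM in intact and 355 ± 44.6 CPM in deleted cultures (log2 fold change -0.24 ± 0.14, adjusted p = 0.312 by edgeR's quasi-likelihood test). Of 19 glutamate receptor scaffolds, 15 were tested, 1 was called higher and 0 lower, and the median was 0.07. Shank3, a scaffold of the postsynaptic density, rose from 12.8 ± 1.25 to 21.3 ± 4.61 CPM (0.74 ± 0.18 on the log2 scale, adjusted p = 0.0455). The call was lost without any 1 intact library or without deleted replicate 3, with an adjusted p of up to 0.138. It was also lost with a litter block (0.0984), littermates summed (0.0661), a replicate block (0.0907), total-count scaling (0.141) and no filter on low counts (0.0728).

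Of 10 GABA receptor scaffolds, 8 were tested and 0 called. Gphn, encoding gephyrin, the scaffold of GABA-A and glycine receptors, stood at 70.5 ± 4.09 CPM in intact and 63.7 ± 25.8 CPM in deleted cultures (log2 fold change -0.15 ± 0.26, adjusted p = 0.764 by edgeR's quasi-likelihood test).

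For glutamate supply and uptake, 9 of 12 genes were tested, 0 were called higher and 3 lower, while the median was 0.56. The neuronal glutamate transporter Slc1a1 fell from 5.84 ± 2.22 to 1.32 ± 0.685 CPM (log2 fold change -2.12 ± 0.47, adjusted p = 0.0327 by edgeR's quasi-likelihood test). Slc1a6, another transporter, fell from 0.936 ± 0.130 to 0.177 ± 0.0859 CPM (-2.36 ± 0.41, adjusted p = 0.0152), close to the limit of detection. Both of these calls were lost without any 1 intact library, and that of Slc1a1 also without deleted replicate 3. Summed littermates (adjusted p = 0.0744 for Slc1a1 and 0.0630 for Slc1a6) and a replicate block (0.0849 and 0.0549) ended both, and a litter block ended that of Slc1a1 (0.0962). Slc1a2, an astrocyte glutamate transporter named here after its values were seen, was at 55.7, 29.8, 84.2 and 35.8 CPM in intact and at 540, 5.32, 26.8 and 7.30 CPM in deleted cultures 1 to 4, the order seen for Gria4.

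For GABA supply and uptake 6 of 9 genes were tested and 0 called, with a median of 0.48. Of 7 chloride transporters and carbonic anhydrases, which set the direction of GABA currents, 5 were tested and 0 called, with a median of 0.17. Car2, a carbonic anhydrase, was at 116 ± 33.1 CPM in intact and 190 ± 136 CPM in deleted cultures (log2 fold change 0.71 ± 0.53, adjusted p = 0.434 by edgeR's quasi-likelihood test).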

How the data were processed

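RNA-seq counts of 8 neurosphere cultures, 4 Kat7 deleted and 4 Kat7 intact, were analysed, and groups were taken from the labels. The authors' deposited table holds whole-number read counts for each gene and was not normalized. The submitters' processing notes name CASAVA 1.8.2 and featureCounts, with mm10 as the build. Neither the aligner nor a strand setting was given in the sources used here. Per the labels' protocols, 100 bp single-end reads were made from polyadenylated RNA. The 8 files of single libraries held the same counts as the table. Symbols and positions came from RefSeq GRCm38.p6 by Entrez identifier, with 25275 of 27179 matched, and exon overlaps came from GENCODE.

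All genes were fitted with edgeR 4.0.16 in R 4.3.3 (filterByExpr with a minimum count of 10, TMM scaling, robust quasi-likelihood F test, no covariate), with Benjamini-Hochberg adjustment over the 13498 genes tested and calls at an adjusted p under 0.05. CPM used TMM-scaled library sizes, and CPM per kb used the deposited gene length. Standard errors divide the size of the log2 fold change by the root of F, at a prior count of 0.125. Log2 CPM used a prior count of 2. DESeq2 1.42.0 and limma 3.58.1 were alternatives, beside other scalings, filters, a litter block, a replicate block, summed littermates and omitted libraries. The fit was tested on simulated data. Limits from 0 reads (3 counts) cover counting error only.

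The receptor genes, the 7 functional lists, the marker lists and the alternatives were chosen with earlier results of these data known. By the naming rule, subunits with a mean of at least 1 CPM, with genotypes that did not overlap, or leading their class got values in every library. From each functional list, called genes or else the most abundant gene per kb were named. Results for a few of these genes are not reported here.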

Additional observations from a re-analysis of the deposited data

Results flagged for a closer look

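Subunits, though not all 47, and class sums were examined for a single library far from the other 3 of its genotype (a gap to the nearest library, as a part of the whole range, above Dixon's 95% limit for 4 values). Of 54 sets of 4 values examined, class sums included, 8 had such a library. Chance gives about 1 in 20 for independent sets with a normal spread. These sets share libraries, the class sums reuse the same genes, and CPM were not on a log scale, so that rate is no measure of chance here. In deleted cultures the far library was replicate 1 for Gria4 (426 CPM), Gabra2 (30.8 CPM), Gabra4 (17.9 CPM), Gabbr2 (7.10 CPM) and Grm3 (3.80 CPM). It was replicate 2 for Grik3 (1.56 CPM, high) and for Gria3 (20.9 CPM, low). Among intact cultures it was replicate 4 for Grm3 (30.5 CPM). Deleted replicate 1 was also the deleted library with the most Kat7 reads (416) and the highest astrocyte marker sum (6499 CPM), and the part of these in the values was not tested.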

How the results depend on the processing

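With 22 alternatives beside the reported fit, 12 of the 19 subunits kept their direction in every one and 7 did not (among them Gria1, Gria4, Grin3a, Grm5, Gabra2 and Gabbr1). A total of 15 were called in at least 1 alternative, most often without deleted libraries. Single alternatives called up to 16.7% of all genes. The shares of all genes called in at least 1 alternative, or keeping direction in every one, were not counted. These counts therefore cannot be read as particular to the subunits. The replicate numbers were not stated to pair fetuses, and same-numbered libraries deviated together with r of 0.0961, 0.221, 0.110 and 0.331, so they were not treated as pairs. Intact replicates 2 and 4 matched best with their own number. A replicate block called 0 subunits and 319 genes in all, against 1066 without it. It left 0 calls among AMPA auxiliary proteins, glutamate scaffolds and glutamate supply genes, and gave log2 fold changes of -1.50 for Grin3a, -0.92 for Gabra2 and -2.91 for Gria4. The pairs of deleted libraries left out below were picked from earlier results: the most Kat7 reads (1 and 3), the highest mitochondrial shares (1 and 4) and the first principal component (2 and 4). Depth limits the genes under a few CPM, where 1 to 10 reads set the fitted size. The cause of the changes was not tested.

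Of the subunits, 0 were called higher in the reported fit, against 1 without deleted 1 and 4 and 2 without deleted 2 and 4. None was called lower in it, against 2 with limma-voom, 1 with a litter block, 0 to 4 with 1 library left out (4 without deleted 1 and 2 without deleted 2), 10 without deleted 1 and 3, 4 without 1 and 4, and 1 without 2 and 4. Calls over all genes, in either direction, were 673 with total counts, 2200 with DESeq2 and 1079 (7.99%) with limma-voom. They were 422 (3.13%) with a litter block and 193 with littermates summed. With 1 library left out they were 189 to 2182, at 12.6% without deleted 1 and 15.8% without deleted 2. They were 2299 (16.7%) without deleted 1 and 3, 1343 (9.67%) without 1 and 4, and 2046 (14.6%) without 2 and 4. AMPA auxiliary calls, 2 as reported, were 1 with total counts, 1 with a litter block, 0 with littermates summed, 1 with a mean of at least 1 CPM, and 0 to 2 with 1 library left out. Kainate auxiliary calls were 1 without deleted 1 and 3. Glutamate scaffold calls, 1 as reported, were 0 with total counts, a litter block, littermates summed or no filter, 0 to 3 with 1 library left out, 3 without deleted 1 and 3, and 2 without 1 and 4. GABA scaffold calls, 0 as reported, were 0 to 1 with 1 library left out, 3 without deleted 1 and 3, and 1 without 1 and 4 or 2 and 4. Glutamate supply calls, 3 as reported, were 1 with a litter block, 0 with littermates summed, and 0 to 3 with 1 library left out. GABA supply calls were 1 without deleted 1 and 4 or 2 and 4, and chloride list calls 1 with DESeq2, without 1 and 3, or without 2 and 4. Kat7 passed with limma-voom (-4.92, adjusted p = 0.0402), without deleted 1 and 3 (-8.51) and without 2 and 4 (-2.06).

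Log2 fold changes turned direction as follows. Gria1 was -0.14 with total counts, -0.012 with upper quartile factors, -0.024 with limma-voom, -0.14 with a litter block, -0.20 with littermates summed, -0.012 with no filter, -0.0046 with mitochondrial transcripts left out, -0.35 without deleted 1 and 4, -0.42 without 2 and 4, and -0.28 to 0.21 with 1 library left out. With limma-voom, Grin3a was -1.38, Gabra2 -1.30 and Gria4 -2.66. With a litter block they were -1.23, -0.92 and -2.40, and Gabbr1 was -0.027. Without deleted 1 and 3, Grin3a was -4.72, Gabra2 -4.88, Gria4 -6.95, Gabbr1 -0.044 and Car2 -0.69. Without deleted 1 and 4, Grin3a was -0.88, Gabra2 -1.04, Gria4 -2.16 and Gabbr1 -0.62. Without deleted 2 and 4, Grm5 was 0.053 and Gphn 0.27. With 1 library left out, the ranges were -1.37 to 0.66 for Grin3a, -1.57 to 1.97 for Gabra2, -2.68 to 0.72 for Gria4, -0.075 to 0.47 for Gabbr1 and -0.38 to 0.027 for Gphn.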

Other observations

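Littermates of 1 genotype could be far apart. Between deleted replicates 3 and 4, which came from 1 litter, 13 of the 19 tested subunits (68.4%) differed by more than 2-fold, beside 13.2% of all genes tested, with a median difference of 1.48 against 0.32 on the log2 CPM scale. Between the intact littermates, replicates 1 and 2, it was 1 of 19 (5.26%), beside 3.24% of all genes, with a median difference of 0.21 against 0.15. Intact replicates 3 and 4, from different litters, differed by more than 2-fold in 5 of 19 (26.3%, beside 5.73% of all genes). For deleted replicates 1 and 2, also from different litters, it was 17 of 19 (89.5%, beside 28.4%). These values are a description of single pairs of libraries with no test.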
